A study of Mus musculus with 6 samples.

Results

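The genes described are 6 of the plasminogen activation system: the activators Plat and Plau, the receptor Plaur, and the inhibitors Serpine2, Serpinb2 and Tfpi2. They were picked by name, and their rows were read in the gene tables of all 6 libraries, which hold 18857 genes in all. All 6 had reads in every library. Levels are given as RPKM, the uniquely mapped reads of a gene per kilobase of its transcript and per 1000000 reads of the library, with the reads behind them in brackets.

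The study sequenced polyadenylated RNA of mouse embryonic stem cells to follow what happens to the transcriptome when Erk kinase is lost or its activating kinase Mek is inhibited. All cells were of the KH2 line, on a C57BL/6 x 129 background, a line built to carry transgenes induced by doxycycline (Dox). The engineered cells, labelled iErk1; Erk KO and called Erk KO here, were grown in 4 ways: 96 hours after Dox removal with the Mek inhibitor PD0325901 over the last 48 hours, in the presence of Dox, and 48 or 96 hours after its removal with no inhibitor. KH2 cells labelled wild type were treated with PD0325901 for 48 hours or left untreated. Each of these 6 groups is 1 library, so a difference between 2 libraries has no replicate check, and its interval covers the counting of reads only.

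The libraries held between 9.05 M and 9.95 M uniquely mapped reads in genes (M for 1000000). Mapk3, which encodes Erk1, had 9.18 RPKM in Erk KO cells with PD0325901, 14.8 RPKM with Dox, 6.86 RPKM at 48 hours and 6.75 RPKM at 96 hours without Dox, against 52.8 and 56.4 RPKM in the treated and untreated KH2 libraries. The labels do not say what was removed, so whether the reads left in Erk KO cells come from remaining exons, the transgene or other cells is not known here. Spry4, a feedback inhibitor of the pathway that Erk induces, had 0.132 RPKM in Erk KO cells with PD0325901, 23.9 with Dox, 1.54 at 48 hours, 6.41 at 96 hours, 1.22 in treated KH2 cells and 31.4 in untreated KH2 cells. Spry4 was thus lower in the libraries with PD0325901 and in the Erk KO libraries without Dox, but the 7 genes listed as checks of the pathway did not all move this way. With PD0325901 over both pairs 4 of them fell and 1 rose by edgeR, and the 1 that rose was Egr1, an early growth response factor that Erk induces. It had 12.3 RPKM in treated against 7.95 RPKM in untreated Erk KO cells at 96 hours, and 214 RPKM in treated against 168 RPKM in untreated KH2 cells (log2 fold change 0.47, edgeR adjusted p = 0.00905, and 0.119 in DESeq2). All 10 embryonic stem cell markers listed for the check of cell type, Pou5f1 and Nanog among them, were at or above 1 RPKM in every library.

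Plasminogen activators are serine proteases that cut the zymogen plasminogen into plasmin, which digests fibrin and matrix proteins and switches on several matrix metalloproteinases. Tissue activator (Plat) works mainly on fibrin and cell surfaces, and urokinase (Plau) is held at the cell surface by its lipid-anchored receptor (Plaur). Serpins trap these proteases in irreversible complexes, whereas Kunitz inhibitors such as Tfpi2 block plasmin and trypsin-like enzymes reversibly. Urokinase, its receptor and Serpinb2 are textbook targets of growth factor signalling through Erk and the transcription factor AP-1.

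PD0325901 left the 6 genes moving in different directions, with the inhibitors Serpinb2 and Tfpi2 lower and Plat and Serpine2 higher in both cell states. A gene was called higher or lower between 2 libraries when the log2 ratio of RPKM + 0.5 was at least 1 in size, the higher library had at least 1 RPKM, both together had at least 20 reads and the interval of the fold excluded 1. With PD0325901 in Erk KO cells, 1 of the 6 genes was called higher and 3 lower, where 1.93% of the 11920 genes that passed the filter on reads and level were called in either direction (1.34% higher and 0.587% lower). With PD0325901 in KH2 cells, 0 were called higher and 2 lower, where 5.08% of 12787 genes were called (3.86% higher and 1.22% lower). After 48 hours without Dox 1 was higher and 1 lower (4.89% of 11386 genes called, 2.77% higher and 2.13% lower), and after 96 hours without Dox 2 were higher and 1 lower (9.68% of 11804 genes called, 7.62% higher and 2.07% lower). The Erk KO library at 96 hours is the untreated side of the PD0325901 comparison and the withdrawn side of the Dox comparison, and both times without Dox are set against the same Dox library. These comparisons therefore share libraries, and their values are given side by side and not as independent results.

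**Figure D1:**
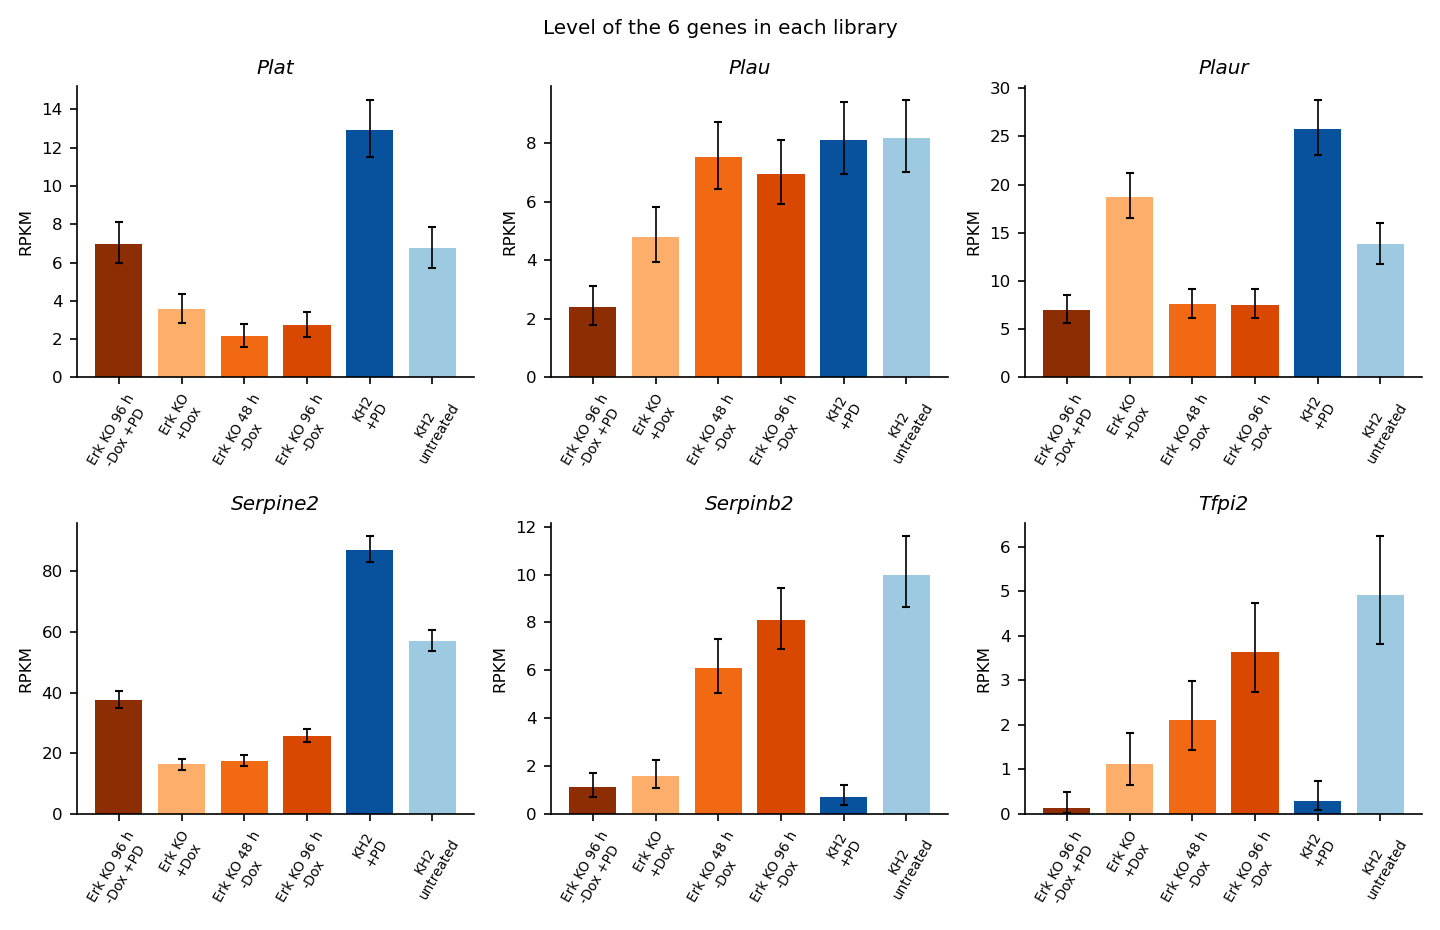
Level of each of the 6 genes in RPKM (vertical axes, linear from 0) in each of the 6 libraries, 1 bar per library, with 95% exact Poisson intervals that cover counting error only. Serpinb2 and Tfpi2 are lowest in the 2 libraries with PD0325901, while Plat and Serpine2 are highest in KH2 cells with PD0325901, at 12.9 and 87.1 RPKM.

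Plat, the tissue plasminogen activator, was highest in KH2 cells with PD0325901 and lowest in Erk KO cells without Dox and without inhibitor. It had 6.99 RPKM (175 reads) in Erk KO cells with PD0325901, 3.55 RPKM (85 reads) with Dox, 2.14 RPKM (53 reads) at 48 hours and 2.72 RPKM (69 reads) at 96 hours without Dox, and 12.9 RPKM (298 reads) in treated against 6.74 RPKM (156 reads) in untreated KH2 cells. Each PD0325901 library was thus above its own untreated library. The fold on reads scaled to library totals was 2.57 (95% Clopper-Pearson interval 1.93 to 3.44) in Erk KO cells, which was called, and 1.92 (1.58 to 2.34) in KH2 cells, which fell just short of the size rule at a log2 ratio of 0.89. Erk KO cells with PD0325901 and untreated KH2 cells, neighbours in the order of levels, did not differ beyond counting error (1.04-fold, 0.831 to 1.30). The 3 Erk KO libraries without inhibitor came next, and no neighbouring pair among them did either. The ends of that order did differ: at 48 hours without Dox the level was 1.65-fold lower than with Dox (1.16 to 2.38), which is short of the size rule, while the interval at 96 hours included 1 (0.937 to 1.82).

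Plau, the urokinase-type activator, had 2.39 RPKM (55 reads) in Erk KO cells with PD0325901, 4.81 RPKM (106 reads) with Dox, 7.52 RPKM (171 reads) at 48 hours and 6.95 RPKM (162 reads) at 96 hours without Dox, and 8.11 RPKM (172 reads) in treated against 8.17 RPKM (174 reads) in untreated KH2 cells. The treated Erk KO library was the lowest and stood apart from the other 5. In Erk KO cells the level was 2.91-fold lower with PD0325901 (2.13 to 4.03), whereas in KH2 cells the fold was 0.993 (0.800 to 1.23). The share of Plat in the summed RPKM of both activators was 74.5% in Erk KO cells with PD0325901, 42.4% with Dox, 22.2% at 48 hours and 28.1% at 96 hours without Dox, and 61.4% in treated against 45.2% in untreated KH2 cells. The sum itself lay between 8.35 and 9.67 RPKM in the 4 Erk KO libraries, and at 21.0 and 14.9 RPKM in treated and untreated KH2 cells. Plat therefore made up most of the activator RNA in the PD0325901 libraries alone.

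Plaur, the receptor of urokinase, was high in KH2 cells with PD0325901 and in Erk KO cells with Dox. It had 6.99 RPKM (96 reads) in Erk KO cells with PD0325901, 18.7 RPKM (246 reads) with Dox, 7.60 RPKM (103 reads) at 48 hours and 7.56 RPKM (105 reads) at 96 hours without Dox, and 25.8 RPKM (326 reads) in treated against 13.8 RPKM (175 reads) in untreated KH2 cells. Its level was 2.46-fold lower at 48 hours (1.95 to 3.13) and 2.48-fold lower at 96 hours without Dox (1.96 to 3.15) than with Dox. In the order of levels the 3 Erk KO libraries without Dox were lowest, and neighbours among them did not differ beyond counting error. PD0325901 went with a 1.87-fold higher level in KH2 cells (1.55 to 2.26) and with a fold of 0.926 (0.695 to 1.23) in Erk KO cells.

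Serpine2, or protease nexin-1, inhibits urokinase, tissue activator and thrombin, and it had the most reads of the 6 genes. It had 37.6 RPKM (766 reads) in Erk KO cells with PD0325901, 16.3 RPKM (318 reads) with Dox, 17.5 RPKM (351 reads) at 48 hours and 25.7 RPKM (530 reads) at 96 hours without Dox, and 87.1 RPKM (1633 reads) in treated against 56.9 RPKM (1072 reads) in untreated KH2 cells. Both KH2 libraries were above all Erk KO libraries. The PD0325901 folds were near each other, at 1.46 (1.31 to 1.64) in Erk KO cells and 1.53 (1.42 to 1.65) in KH2 cells, and neither passed the size rule. The level at 48 hours without Dox did not differ from that with Dox beyond counting error (1.07-fold, 0.917 to 1.25), and at 96 hours it was 1.58-fold higher (1.37 to 1.82).

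Serpinb2, or plasminogen activator inhibitor type 2, inhibits urokinase and is largely kept inside the cell. It had 1.11 RPKM (22 reads) in Erk KO cells with PD0325901, 1.59 RPKM (30 reads) with Dox, 6.11 RPKM (119 reads) at 48 hours and 8.11 RPKM (162 reads) at 96 hours without Dox, and 0.716 RPKM (13 reads) in treated against 10.03 RPKM (183 reads) in untreated KH2 cells. Libraries thus fell into a low set, with PD0325901 or with Dox, and a high set with neither. PD0325901 went with a 7.27-fold lower level in Erk KO cells (4.64 to 11.9) and a 14.0-fold lower level in KH2 cells (7.99 to 26.8). Without Dox the level was 3.85-fold higher at 48 hours (2.56 to 5.95) and 5.10-fold higher at 96 hours (3.44 to 7.81). The reads covered 30.9% of the transcript in the treated and 83.0% in the untreated Erk KO library at 96 hours, and 27.3% in treated against 91.9% in untreated KH2 cells.

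Tfpi2, a secreted Kunitz inhibitor of plasmin and trypsin that binds to the matrix, had the fewest reads. It had 0.134 RPKM (2 reads) in Erk KO cells with PD0325901, 1.12 RPKM (16 reads) with Dox, 2.10 RPKM (31 reads) at 48 hours and 3.63 RPKM (55 reads) at 96 hours without Dox, and 0.290 RPKM (4 reads) in treated against 4.92 RPKM (68 reads) in untreated KH2 cells. Its order over the libraries was close to that of Serpinb2, with untreated KH2 cells and the Erk KO library at 96 hours on top. With PD0325901 it was 27.2-fold lower in Erk KO cells and 16.9-fold lower in KH2 cells, with wide intervals of 7.17 to 230 and 6.31 to 63.9 because so few reads remained. At 96 hours without Dox it was 3.25-fold higher than with Dox (1.83 to 6.08), while the 48 hour interval included 1 (1.88-fold, 0.997 to 3.68).

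**Figure D2:**
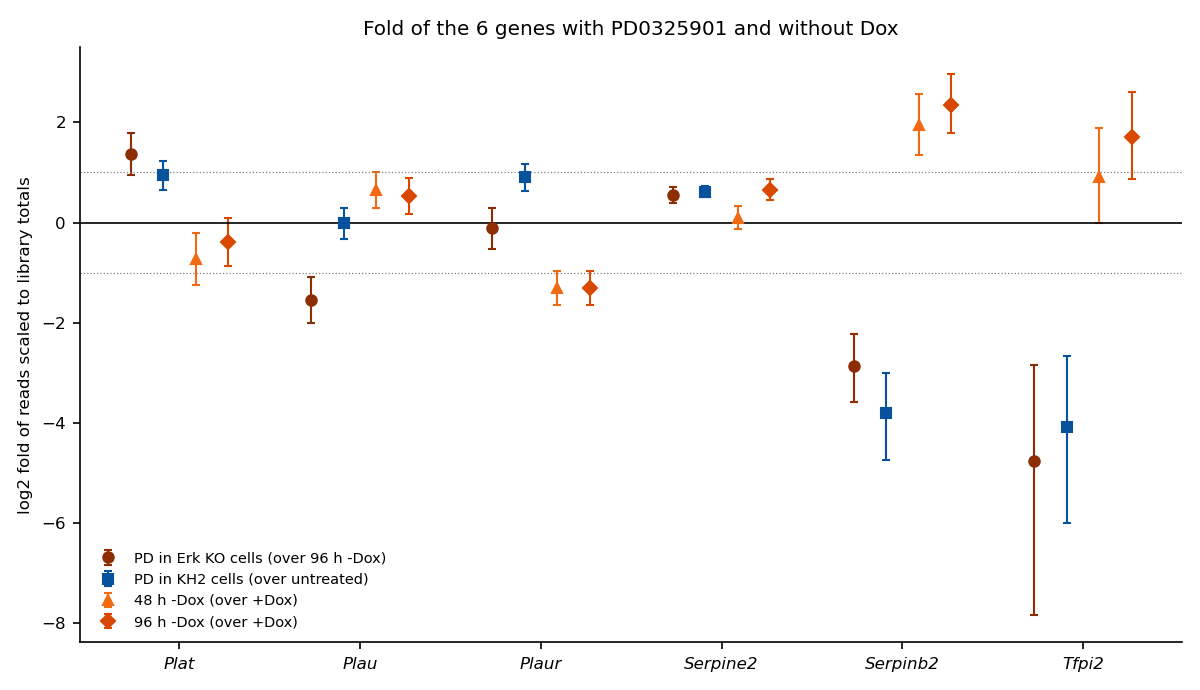
Fold of each of the 6 genes on reads scaled to library totals (vertical axis, log2) with PD0325901 in Erk KO and KH2 cells and after 48 and 96 hours without Dox, with 95% exact intervals that cover counting error only; dotted lines mark 2-fold. Serpinb2 and Tfpi2 lie below 0 with PD0325901 and above 0 without Dox, and Plaur lies below 0 at both times without Dox.

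Set against each other by role, the serpin ratio moved most. Serpine2 stood at 33.7 times the RPKM of Serpinb2 in Erk KO cells with PD0325901, 10.3 times with Dox, 2.86 times at 48 hours and 3.17 times at 96 hours without Dox, and 122 times in treated against 5.68 times in untreated KH2 cells. The receptor stood at 2.93, 3.90, 1.01 and 1.09 times the RPKM of urokinase in the same 4 Erk KO libraries, and at 3.18 times in treated against 1.69 times in untreated KH2 cells. Over the 6 libraries the highest level was 36.8 times the lowest for Tfpi2 and 14.0 times for Serpinb2, and between 3.42 and 6.03 times for the other 4 genes.

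The promoters of Serpinb2, Tfpi2, Plaur and Serpine2 are shown because the first pair moved together, Plaur moved apart from them without Dox, and Serpine2 had another pattern again. They are RefSeq windows on build GRCm38.p6, from 250 bases before to 50 bases after a transcript start, and 4 of the 6 genes had one; Plat and Plau had none. The reads were mapped to mm9, so these coordinates are not those of the expression tables. The windows were searched on both strands for the AP-1 motif TGANTCA, the cAMP response element TGACGTCA, the Ets motif of the PEA3 type AGGAAG and the TATA motif TATAAA, none of which overlapped in these windows. Capitals mark every match, and bases are written 5′ to 3′ on the gene's strand. Serpinb2 has 2 overlapping windows with the same matches, of which the upstream one is shown; Tfpi2 has 3, of which the one at the start of the Gencode transcript is shown, and the other 2 hold none of the 4 motifs.
Serpinb2, chr1:107511173-107511472, plus strand: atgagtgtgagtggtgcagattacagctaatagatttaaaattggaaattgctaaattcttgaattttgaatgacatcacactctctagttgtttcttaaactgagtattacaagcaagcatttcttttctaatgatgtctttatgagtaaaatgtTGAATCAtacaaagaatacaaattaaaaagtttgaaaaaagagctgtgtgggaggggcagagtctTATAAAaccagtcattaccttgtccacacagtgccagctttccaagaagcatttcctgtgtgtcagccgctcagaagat
Tfpi2, chr6:3968326-3968625, minus strand: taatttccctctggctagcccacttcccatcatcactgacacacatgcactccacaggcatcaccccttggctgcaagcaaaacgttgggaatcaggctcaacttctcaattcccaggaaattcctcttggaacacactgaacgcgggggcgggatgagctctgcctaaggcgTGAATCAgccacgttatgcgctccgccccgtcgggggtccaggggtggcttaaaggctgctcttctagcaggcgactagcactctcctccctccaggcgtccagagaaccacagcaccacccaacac
Plaur, chr7:24462233-24462532, plus strand: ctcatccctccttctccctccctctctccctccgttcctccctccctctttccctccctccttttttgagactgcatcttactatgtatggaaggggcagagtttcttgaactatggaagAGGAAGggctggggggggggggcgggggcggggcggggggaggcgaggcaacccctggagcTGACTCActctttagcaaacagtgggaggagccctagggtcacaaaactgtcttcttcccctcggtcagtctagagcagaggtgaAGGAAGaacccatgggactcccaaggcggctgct
Serpine2, chr1:79858616-79858915, minus strand: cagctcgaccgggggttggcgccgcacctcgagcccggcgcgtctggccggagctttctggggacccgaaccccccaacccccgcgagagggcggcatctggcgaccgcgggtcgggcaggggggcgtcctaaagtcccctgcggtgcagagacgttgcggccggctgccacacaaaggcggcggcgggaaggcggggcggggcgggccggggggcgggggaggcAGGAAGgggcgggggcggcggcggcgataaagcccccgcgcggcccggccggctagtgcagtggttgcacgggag

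The AP-1 motif was found once each in the shown windows of Serpinb2, Tfpi2 and Plaur, beginning 94, 77 and 69 bases before the transcript start, and not in that of Serpine2. Of all 32851 windows in the table, 7.81% hold this motif. The matched letters were TGAATCA in Serpinb2 and Tfpi2 and TGACTCA in Plaur. The TATA motif, in 13.6% of all windows, was found in the Serpinb2 window 29 bases before the start. The Ets motif, in 35.4% of all windows, was found in Plaur at 2 places and in Serpine2 at 1, and the cAMP response element, in 1.79% of all windows, in none of the 4. The windows also differed in composition, with 35.3% G and C and 1 CpG in Serpinb2, 57.3% and 12 in Tfpi2, 59.3% and 7 in Plaur, and 77.7% and 41 in Serpine2, where the median of all windows was 52.7% G and C. A match is a run of letters only, and binding was not measured here.

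Over both pairs together, PD0325901 raised Plat and Serpine2 and lowered Serpinb2 and Tfpi2. The test was edgeR's quasi-likelihood test on the 4 libraries with and without inhibitor in the Erk KO cells at 96 hours and the KH2 cells. It had the cell state as a block, 1 residual degree of freedom and Benjamini-Hochberg adjustment over 14782 genes. The spread in this fit rests on how far both pairs differ in their change, and not on replicate cultures. Plat rose by 1.12 on the log2 scale (SE 0.174, edgeR adjusted p = 0.000655) and Serpine2 by 0.58 (SE 0.101, edgeR adjusted p = 0.00158). Serpinb2 fell by 3.28 (SE 0.266, edgeR adjusted p = 7.3e-07) and Tfpi2 fell by 4.29 (SE 0.443, edgeR adjusted p = 1.12e-05). Each of these 4 genes moved the same way in both pairs. Plau, at -0.66 (SE 0.270, edgeR adjusted p = 0.153), and Plaur, at 0.48 (SE 0.216, edgeR adjusted p = 0.199), did not pass. Plau passed with DESeq2's size factors in edgeR (adjusted p = 0.0138), with library totals (0.00634) and in the fit of 3 cell states without the 48 hour library (0.00504). In that fit its value was 0.01 without the treated Erk KO library, and Plaur was at -0.18 without the untreated KH2 library, so neither direction held throughout. So 2 of the 6 genes were higher and 2 lower, where 8.97% of all genes tested were called (6.05% higher and 2.92% lower).

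DESeq2 called the same 4 genes, where it called 2.98% of all genes (2.29% higher and 0.697% lower), with adjusted p of 0.00678 for Plat, 0.0321 for Serpine2, 3.95e-12 for Serpinb2 and 8.39e-06 for Tfpi2. Over 12 alternative fits Plat and Serpine2 passed in 6 each, with log2 values of 0.96 to 1.47 and 0.57 to 0.78. Serpinb2 passed in 10 of them and Tfpi2 in 8. With all 6 libraries in 3 cell states, Plat (edgeR adjusted p = 0.0638) and Serpine2 (0.144) no longer passed. In that fit Serpinb2 lost its call without the untreated KH2 library (0.0544), and Tfpi2 without it (0.141), without treated KH2 cells (0.108) or without treated Erk KO cells (0.0911), each with its direction kept.

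Whether PD0325901 acted differently in KH2 and Erk KO cells was tested as an interaction over all 6 libraries, taken as 5 groups with both times without Dox as 1. No gene of 15103 passed in edgeR or in DESeq2, and 129 (0.854%) had an unadjusted edgeR p under 0.05. Plau was the only 1 of the 6 whose approximate 95% interval excluded 0, with a log2 fold change higher by 1.63 in KH2 cells (SE 0.584, interval 0.37 to 2.89, unadjusted p = 0.0149, edgeR adjusted p = 1.0). For Plaur the difference was 1.06 (interval -0.09 to 2.21), for Serpinb2 -1.09 (-2.72 to 0.54), for Plat -0.54 (-1.77 to 0.69), for Serpine2 -0.15 (-1.01 to 0.71) and for Tfpi2 0.34 (-2.57 to 3.25), all with an edgeR adjusted p of 1.0. These intervals are wide, and a difference of 2-fold lies inside each of the 6 on at least 1 side.

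Withdrawal of Dox was tested in the same 6 library fit. Both times stood as the 2 samples without Dox, so the spread rests on the difference between times. Here 0 of the 6 genes passed, where 1.01% of 15103 genes did (0.603% higher and 0.411% lower). Serpinb2 was at 2.10 on the log2 scale (SE 0.496, edgeR adjusted p = 0.0667) and Plaur at -1.35 (SE 0.332, edgeR adjusted p = 0.0759). Tfpi2 was at 1.29 (SE 0.702, edgeR adjusted p = 0.575), and Plat, Plau and Serpine2 were at -0.60, 0.54 and 0.35. At an unadjusted edgeR p under 0.05 stood 2 of the 6 genes, Serpinb2 (0.000936) and Plaur (0.00129), and 10.8% of all genes tested. Both passed with DESeq2's size factors in edgeR (adjusted p = 0.00587 for Serpinb2 and 0.0097 for Plaur) and without the filter on reads. Neither passed in DESeq2 itself, where their adjusted p was 0.276 and 0.462 and 0.516% of all genes were called (0.371% higher and 0.146% lower). Between 96 and 48 hours without Dox 0 of the 6 genes were called (5.02% of 11722 genes called, 4.55% higher and 0.469% lower), and the folds ran from 0.923 for Plau to 1.73 for Tfpi2.

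The Erk KO line was also set against KH2 cells directly. With Dox, 3 of the 6 genes were lower than in untreated KH2 cells and 0 higher, where 24.2% of 12421 genes were called (2.76% higher and 21.4% lower). These were Serpine2 (3.49-fold lower, 3.08 to 3.97), Serpinb2 (6.31-fold, 4.28 to 9.63) and Tfpi2 (4.40-fold, 2.52 to 8.13). With PD0325901 in both lines, 3 were lower in Erk KO cells, where 19.4% of 12642 genes were called (3.73% higher and 15.6% lower). These were Plau (3.40-fold lower, 2.49 to 4.69), Plaur (3.69-fold, 2.93 to 4.68) and Serpine2 (2.32-fold, 2.12 to 2.53), while Serpinb2 was low in both (1.56-fold, 0.751 to 3.37) and Tfpi2 had too few reads to pass the filter. TMM scaling moved all genes by 0.39 (log2) in the first of these comparisons and by 0.30 in the second. It took the share of higher genes among the calls to 40%, against 11.4% with library totals, in the first, and to 46.1%, against 19.3%, in the second. Under TMM the first 3 genes kept their calls, at log2 ratios of -1.39, -1.99 and -1.42, and so did Plau (-1.30) and Plaur (-1.52), but Serpine2 (-0.90) lost its call with PD0325901. In the other comparisons TMM moved all genes by -0.12 to 0.01 and changed no call of the 6.

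The rest of the plasminogen system was read from a list of 26 genes, of which 25 had a row and 17 passed the filter on reads. With PD0325901 8 rose and 1 fell by edgeR over both pairs, and the median log2 fold change of the 17 was 0.32, against -0.01 over all genes tested. Of all genes tested by edgeR, 6.05% rose and 2.92% fell with PD0325901, and 0.603% rose and 0.411% fell without Dox. The edgeR counts of this and the following lists are to be read beside these shares. Cd44, a hyaluronan receptor, rose by 1.21 (edgeR adjusted p = 9.49e-06), and Mrc2, a collagen receptor that joins urokinase and its receptor at the surface, by 1.19 (edgeR adjusted p = 3.33e-05). Lrp2, an endocytic receptor that takes up activator and serpin complexes, fell by 1.06 (edgeR adjusted p = 0.00473). A2m, the broad protease trap alpha-2-macroglobulin, rose by 0.68 with PD0325901 (edgeR adjusted p = 0.000938) and by 2.87 without Dox (edgeR adjusted p = 0.0387), and was the 1 gene of this list that passed there. It had 123 RPKM in Erk KO cells with PD0325901, 7.10 with Dox, 21.8 at 48 hours and 88.2 at 96 hours without Dox, and 40.1 in treated against 21.6 in untreated KH2 cells. Plg, the gene of plasminogen itself, had no read in 5 libraries and was at 0.0399 RPKM in untreated KH2 cells.

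**Figure D3:**
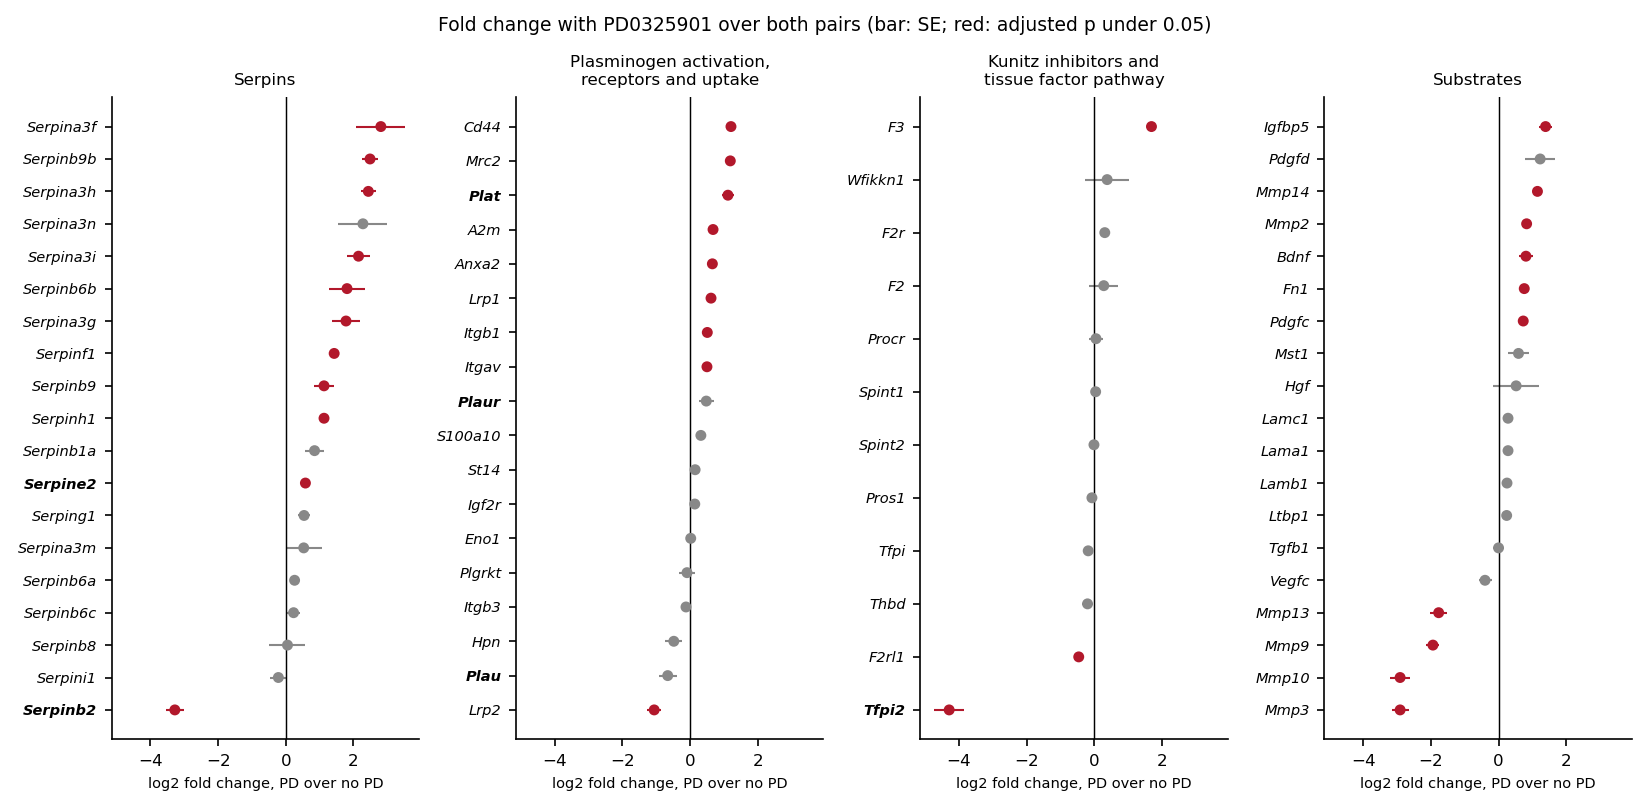
Log2 fold change with PD0325901 over both pairs (horizontal axes, edgeR, with SE bars) for genes of 4 lists that passed the filter on reads. The serpin panel need not hold every serpin that passed. Red marks an adjusted p under 0.05 and bold the 6 genes described. Serpinb2 is the lowest serpin at -3.28 and Tfpi2 the lowest of the Kunitz and tissue factor genes at -4.29; F2r, on 2 lists, is drawn once.

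Among all 38 serpin genes with a row, 20 passed the filter, 11 rose and 1 fell with PD0325901, and the 1 that fell was Serpinb2. Serpine2 is among the 11, and the median log2 fold change of the 20 was 1.13, against -0.01 over all genes tested. This median covers only serpins with enough reads, such as Serpina3f, with 28 reads in treated against 3 in untreated KH2 cells. Over all 38 serpins the median log2 ratio between single libraries was 0.28 in KH2 and 0.13 in Erk KO cells with PD0325901. Among the 18 and 13 that passed the filter there it was 1.24 and 0.57, and over all genes 0.0 in both. This ratio understates the change of low genes. Serpinf1, the antiangiogenic pigment epithelium-derived factor, rose by 1.43 (edgeR adjusted p = 3.89e-07), with 48.4 RPKM in treated against 16.9 RPKM in untreated Erk KO cells at 96 hours and 94.9 against 37.3 RPKM in treated and untreated KH2 cells. Serpinb9b rose by 2.49 and Serpina3h by 2.44 (edgeR adjusted p = 2.78e-06 and 2.38e-06), but the Serpina3, Serpinb6 and Serpinb9 genes stand in clusters of near-identical copies, so the split of unique reads between them is uncertain. Without Dox 1 of the 21 serpins that passed the filter rose, Serpinb1a, an inhibitor of neutrophil proteases, by 2.71 (edgeR adjusted p = 0.0380). Its RPKM was 7.01 in Erk KO cells with PD0325901, 0.881 with Dox, 6.30 at 48 hours and 5.62 at 96 hours without Dox, and 4.52 in treated against 1.25 in untreated KH2 cells.

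Of 13 other genes of the Kunitz family, to which Tfpi2 belongs, and of the tissue factor pathway, 11 passed the filter. Among these, 1 rose and 1 fell with PD0325901. F3, or tissue factor, the cell surface trigger of coagulation, rose by 1.69 (SE 0.107, edgeR adjusted p = 4.9e-08), with 31.2 RPKM in treated against 9.69 RPKM in untreated Erk KO cells at 96 hours and 129 against 40.2 RPKM in treated and untreated KH2 cells. F2rl1, a receptor cut by trypsin-like proteases, fell by 0.46 with PD0325901 (edgeR adjusted p = 0.0303) and by 1.35 without Dox (edgeR adjusted p = 0.0229). The median log2 fold change of the 11 with PD0325901 was 0.04.

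Of 20 listed substrates of plasmin and of the activators, 6 rose, 4 fell and 10 did not pass with PD0325901 (median 0.30). All 4 that fell encode matrix metalloproteinases that are secreted as zymogens, but other metalloproteinase genes were among the 6 that rose. Mmp10 and Mmp3, the stromelysins, each fell by 2.91 (edgeR adjusted p = 7.74e-06 and 1.75e-06), Mmp9, a gelatinase, fell by 1.94 (edgeR adjusted p = 7.4e-06) and Mmp13, a collagenase, fell by 1.77 (edgeR adjusted p = 0.000264). Of those that rose, Mmp14 and Mmp2 are named after their values were seen. Mmp14, a membrane-anchored metalloproteinase that activates Mmp2, rose by 1.15 (edgeR adjusted p = 5e-05), with 27.1 RPKM in treated against 15.1 RPKM in untreated Erk KO cells at 96 hours and 50.6 against 18.7 RPKM in treated and untreated KH2 cells. Mmp2, a gelatinase, rose by 0.83 (edgeR adjusted p = 0.000393), with 11.5 RPKM in treated against 6.41 RPKM in untreated Erk KO cells and 27.1 RPKM in treated against 15.4 RPKM in untreated KH2 cells. Without Dox 3 of the 20 rose, namely Mmp3 by 3.39, Mmp10 by 3.20 and Mmp13 by 3.16 (edgeR adjusted p = 0.0238, 0.0307 and 0.0353). Mmp3 had 2.08 RPKM in Erk KO cells with PD0325901, 1.20 with Dox, 7.99 at 48 hours and 18.5 at 96 hours without Dox, and 0.833 in treated against 4.15 in untreated KH2 cells. The low libraries were thus those with PD0325901 or with Dox, as for Serpinb2.

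The transcription factor list held 18 genes of the AP-1, Ets and early growth response kind, and 8 rose and 2 fell with PD0325901 (median 0.42). Fosl2 rose by 1.44 and Fos by 0.89 (edgeR adjusted p = 3.23e-06 and 6.32e-05), both subunits of AP-1. Etv4 fell by 2.96 and Etv1 fell by 1.44 (edgeR adjusted p = 8.5e-08 and 0.00776), both Ets factors of the PEA3 group. Without Dox 4 of the 18 fell, among them Egr1 by 3.26, Fos by 1.95 and Etv1 by 1.67 (edgeR adjusted p = 0.00549, 0.00335 and 0.0236). Etv1 had 3.41 RPKM in Erk KO cells with PD0325901, 14.5 with Dox, 4.40 at 48 hours and 5.06 at 96 hours without Dox, and 1.04 in treated against 6.47 in untreated KH2 cells.

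Likeness of pattern was measured as the root mean square difference of log2(RPKM + 0.5), centred on its mean over the 6 libraries, among 12180 genes with at least 100 reads in all. Among the 6 genes themselves the closest pairs were Plat with Serpine2 (0.345) and Serpinb2 with Tfpi2 (0.359), and the farthest was Plat with Serpinb2 (1.83). Serpine2 had the closest neighbours, Kremen1 (0.0672), Vegfa (0.0881) and Snai1 (0.0928). Those of Serpinb2 were Itga2 (0.598), Mmp10 (0.632) and Areg (0.656), and those of Tfpi2 were Areg (0.441), Mmp9 (0.501) and Itga2 (0.629). Serpinb2 and Tfpi2 were therefore closer to each other than to any of the other genes compared. Plat was most like Fkbp10 (0.168), Plxdc2 (0.193) and Sbsn (0.193), Plau like Oaf (0.223), Lyrm7 (0.224) and Kctd12 (0.239), and Plaur like Cavin1 (0.211), Pdlim7 (0.216) and Arhgef5 (0.229). All values share the same 6 libraries and describe them only.

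**Figure D4:**
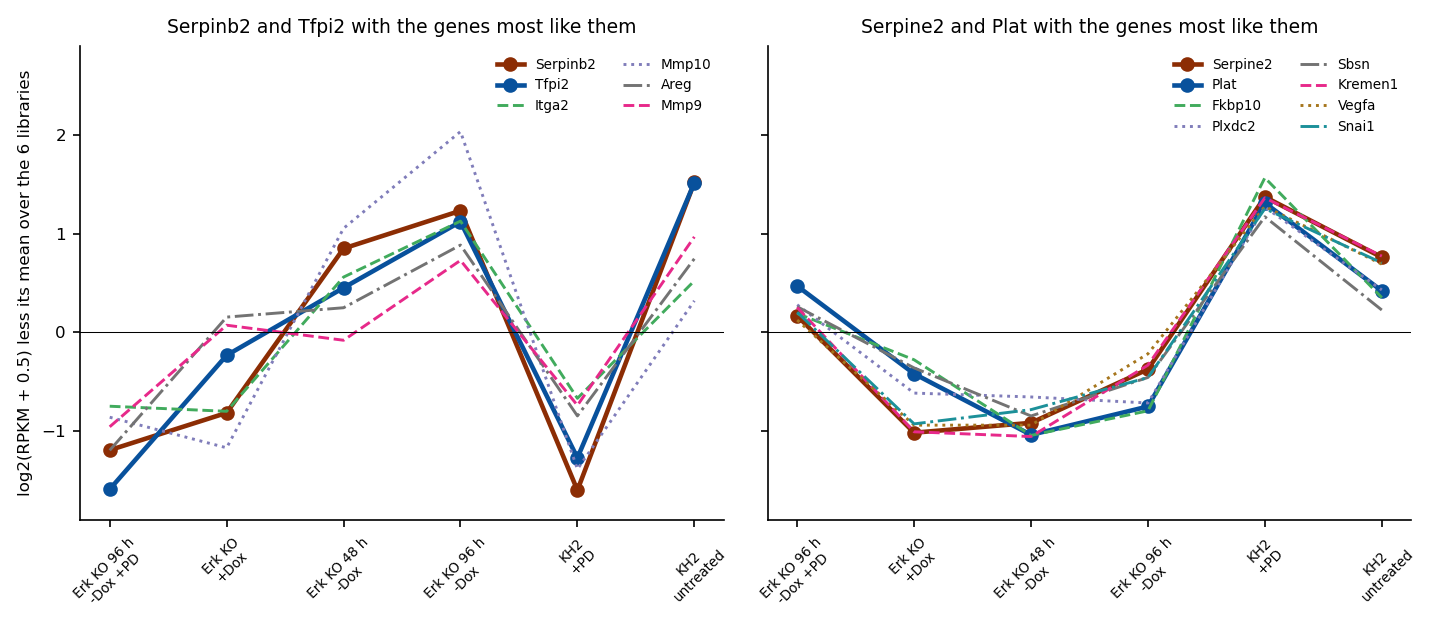
Log2(RPKM + 0.5) less its mean over the 6 libraries (vertical axes) for Serpinb2 and Tfpi2 on the left and Serpine2 and Plat on the right, with the 3 genes most like each; lines join the libraries for reading only. Serpinb2 and Tfpi2 differ from each other by a root mean square of 0.359, and Serpine2 and Plat by 0.345.

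Markers of other cell types were read because fewer cells of a type and less RNA per cell cannot be told apart in bulk RNA. Most fibroblast markers, like Plat and Serpine2, were higher with PD0325901. Of 16 listed, 15 had a row, and in each cell state 10 were called higher, 0 lower and 5 neither way. Of all genes that passed the filter, 1.34% in Erk KO and 3.86% in KH2 cells were called higher. Their summed level was 742 RPKM in Erk KO cells with PD0325901, 103 with Dox, 99.3 at 48 hours and 149 at 96 hours without Dox, and 2120 in treated against 336 in untreated KH2 cells. Col1a1, a fibrillar collagen gene, made up 218 RPKM of the sum in treated Erk KO and 878 RPKM in treated KH2 cells, and Tcf21 had no row. Much of the sum is thus matrix genes, and it is not a count of cells. Serpinb2 and Tfpi2 were lower with PD0325901, where the fibroblast sum was higher. The part of these cells or genes in any of these results was not tested. Of 12 parietal endoderm markers 3 rose with PD0325901 over both pairs, with sums of 866, 445, 536 and 527 RPKM in the Erk KO libraries in the same order, and 1120 in treated against 487 RPKM in untreated KH2 cells. These sums are mostly matrix genes that other cells also make, such as Sparc, which alone had 318 RPKM at 96 hours without Dox and 248 RPKM with Dox. At 96 hours without Dox 0 of the 12 were called higher and 5 lower than with Dox, where 7.62% of all genes were called higher and 2.07% lower. Among the 5 were the transcription factor genes Gata6 (6.96-fold lower, 4.93 to 10.1) and Sox7 (3.40-fold, 1.83 to 6.71) and the endocytic adaptor gene Dab2 (4.66-fold, 3.85 to 5.67), so the sum and these 3 genes moved in opposite directions. Of 10 macrophage markers 0 were called with PD0325901 in either cell state, and their sum was 23.5 RPKM in Erk KO cells with PD0325901 and 17.1 in treated against 17.8 RPKM in untreated KH2 cells. Without Dox the sum was 15.0 RPKM at 48 hours and 25.7 RPKM at 96 hours, against 9.67 RPKM with Dox. Where 2.77% of all genes that passed the filter at 48 hours and 7.62% at 96 hours were called higher, 1 of the 10 was called higher and 0 lower at each time. This was Lyz2, the lysozyme gene of macrophages and neutrophils, with 6.14 and 8.17 RPKM at 48 and 96 hours against 2.01 RPKM with Dox (3.05-fold, 1.82 to 5.33, and 4.06-fold, 2.48 to 6.98). Adgre1, which encodes the macrophage antigen F4/80, had 16 reads at each time without Dox and 0 with Dox, did not pass the filter and was not called. Only 2 of the 10 passed the filter at each time, and 9 were not called. The part of the endoderm and macrophage markers in the higher Serpinb2, Tfpi2, A2m, Serpinb1a and Mmp values without Dox was not tested. The endothelial sum was 29.9 to 50.7 RPKM and the trophoblast sum 39.7 to 75.5 RPKM, with no row for Tpbpa and Prl3d1.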

How the data were processed

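RNA of 6 mouse embryonic stem cell libraries, 1 per group, was enriched for polyA, made into libraries without a stated strand protocol and read as single reads of 50 bases, per the labels' protocols. The submitters' processing notes name the mm9 build; aligner and counter are not given in the sources used here. The authors deposited per gene the count of uniquely mapped reads, the RPKM computed from it and the percent of the transcript covered. Rows were joined by gene ID, an absent row was taken as 0 reads, and 4 tables without symbols were named by RefSeq. Counts were tested with edgeR 4.0.16 (TMM, at least 20 reads over the libraries in a fit, threshold 0.05) and DESeq2 1.42.0; single libraries were compared by log2(RPKM + 0.5), which understates the change of low genes, and by exact intervals, with no test. Genes named beyond the 6 were up to 4 per list with the largest called change, and the 3 most alike in pattern. Mapk3 and Spry4 were named as checks of the labels. The cell type markers, Plg and Mmp14 were named outside this rule. The genes and lists were chosen with earlier results of these data known. On simulated counts the fits returned the planted fold changes. These were planted only in genes with a mean count above those of Tfpi2 and Serpinb2, so genes that low were not checked. In the 6 library fits only large changes were planted. Nothing states separate cultures, so p-values may measure technical spread. Some genes of the lists are counted but not reported by name here.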

Additional observations from a re-analysis of the deposited data

How the results depend on the processing

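Lowering the minimum fold to 1.5 took the genes called to 1855 of 12787 with PD0325901 in KH2 cells and 657 of 11920 in Erk KO cells. Without Dox they became 1682 of 11386 at 48 hours, 2743 of 11804 at 96 hours and 1698 of 11722 between these times. They became 5875 of 12421 between the Dox line and KH2 cells and 5408 of 12642 between the lines with PD0325901. Beside these shares of all genes, the calls among the 6 genes became 5 of 6 with PD0325901 in KH2 cells and 4 at 48 hours without Dox. They became 1 between the times and 5 between the Dox line and KH2 cells. At this lower minimum Serpine2 was also called at 96 hours without Dox (log2 ratio 0.64), and Plat between the lines with PD0325901 (-0.84). A pseudocount of 1 RPKM gave 349 genes between the times. For PD0325901 over both pairs, 1326 genes by edgeR became 441 by DESeq2, 1995 with library totals, 118 with all 6 libraries in 3 cell states (2 of the 6 genes) and 0 without the cell state block (0 of the 6 genes). Leaving out each library in the 3 state fit gave 50 to 1950 genes and 0 to 5 of the 6. For Dox withdrawal, 153 genes became 571 with DESeq2's size factors (2 of the 6), 609 without the filter (2 of the 6), 78 by DESeq2, 35 in 3 cell states and 0 with library totals. Leaving out each library but the Dox one, without which there is no contrast, gave 105 to 3933 genes and 0 to 4 of the 6, the highest without the library at 48 hours, which also called Plaur (1.22e-12), Serpinb2 (1.79e-10), Serpine2 (0.0059) and Tfpi2 (0.0094) by edgeR adjusted p. For the difference between cell states 0 genes became 1 with DESeq2's size factors and 2 without the filter, none of the 6 genes. The cause of these shifts was not tested. Directions turned in the 3 state fit of PD0325901 when a library was left out: Plaur ran from -0.18 without untreated KH2 cells (-0.17 without treated ones) to 0.92, Plau from -1.66 to 0.01 without treated Erk KO cells, and Mapk3 from -0.08 without treated Erk KO cells to 0.38. In that of Dox, Serpinf1 ran from -0.11 to 0.14 without the library at 48 hours, and Mrc2 from -0.33 without that at 96 hours to 0.46. Plau passed with PD0325901 under DESeq2's size factors (edgeR adjusted p = 0.0138), library totals (0.00634) and, in 3 cell states, without the 48 hour library (0.00504). No paired analysis by replicate number was possible because the labels carry none; the PD0325901 fit pairs libraries by cell state. With 2 to 68 reads of Tfpi2 per library, its folds are known to within several-fold only.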
